A study of Mus musculus with 8 samples.

Results

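Tcf7, Lef1, Id2, Id3, Bach2, Satb1, Foxo1 and Eomes encode transcriptional regulators of memory and stem-like T cells. These 8 genes, of 13341 in the deposited table, were selected by name, and all 8 passed the filter on low values, which asked for 2 or more libraries with a level of 10 or higher and left 10845 genes. RNA was sequenced from kidney CD8+, kidney CD4+, spleen CD8+ and spleen CD4+ T cells of MRL/lpr mice 14 weeks old, with 2 libraries in each of the 4 groups. The cells were sorted for high CD44, a surface protein of T cells that have met antigen. Mice of this strain carry the lpr mutation of Fas, a death receptor, in every group, and develop a lupus-like disease with kidney inflammation; neither an unaffected strain nor T cells low in CD44 were part of the design. The labels do not say whether the 2 libraries of a group came from separate animals or from pooled ones, so the p-values measure the spread between these libraries, which may be technical.

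TCF1, the product of Tcf7, and its close relative LEF1 bind DNA through an HMG box and keep naive, central memory and progenitor-like T cells in a state that can self-renew. ID2 and ID3 carry no DNA-binding domain and hold E proteins away from DNA; in mouse T cells ID2 is associated with effector cells and ID3 with longer-lived ones. BACH2 represses effector genes by competing with AP-1 factors, SATB1 organises chromatin in T cells, FOXO1 drives lymphoid homing and survival genes until kinase signals send it out of the nucleus, and EOMES is a T-box factor of CD8+ effector and memory cells.

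Levels are the deposited normalised signal, that is, reads divided by a single factor per library. One read was worth between 0.554 and 1.04 of this signal, and the libraries held between 7477544 and 11169003 reads. Fold changes and their errors were fitted on log2(level + 1), which understates the change of low genes, and a gene was called at a limma p, adjusted by Benjamini-Hochberg over all 10845 genes, below 0.05. The 2 kidney CD4+ libraries differed far more than any other pair: the SD of their log2 difference over 4691 well-expressed genes was 1.56, against 0.650 in kidney CD8+, 0.435 in spleen CD8+ and 0.452 in spleen CD4+. Since all groups share 1 estimate of the spread per gene, this pair enters the errors of every comparison, those without kidney CD4+ cells included. How far it widens them differs by gene. Between kidney CD8+ and spleen CD8+ cells the SE of Tcf7 was 0.38, against 0.21 without both kidney CD4+ libraries. That of Bach2 was 1.06 in both fits.

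Lineage markers matched the sort. Summed over 3 genes, CD8 lineage markers reached 32944 and 36745 in kidney CD8+ and 28854 and 30762 in spleen CD8+ libraries, against at most 1558 in any CD4+ library, and CD4 lineage markers reached at most 45.5 in CD8+ libraries, against 1981 to 4712 in CD4+ libraries. Other cells were also visible. Proximal tubule markers summed to between 5932 and 24017 in the 4 kidney libraries, against at most 5.0 in the spleen, where 9 of 10 were at 0 in every library. Neutrophil markers summed to at most 29.6 in kidney libraries, against 3649 to 9212 in spleen libraries, and erythroid markers to at most 255, against 9183 to 16840. Macrophage markers summed to 2451 and 1879 in kidney CD8+, 7109 and 7074 in kidney CD4+, 841 and 1458 in spleen CD8+ and 1689 and 2264 in spleen CD4+ libraries.

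The sequence before or across the annotated start of Tcf7, Lef1 and Id2 is shown. Tcf7 and Lef1 carried the calls below, and Id2 was the member that lay on the other side of the organ comparison. The letters come from RefSeq's promoter windows (GRCm38.p6; all 8 genes matched), each found once and without change in mm9, which gives the coordinates. Capitals mark an E box, CAGNTG, the motif of the E proteins that ID2 and ID3 restrain. The Tcf7 stretch shown, chr11:52096632-52096766 on the minus strand, is the first 135 bases of a 300-base window, chr11:52096467-52096766. The rest of that window lies further inside the gene. The stretch holds 85 bases before the annotated gene start and 50 bases of the gene. Its E box begins 6 bases past that start, so it lies inside the gene. The Lef1 window, chr3:130812965-130813264 on the plus strand, lies wholly before the annotated gene. The Id2 window, chr12:25780908-25781207 on the minus strand, ends 50 bases into the gene, with an E box 196 bases before its start.
Tcf7: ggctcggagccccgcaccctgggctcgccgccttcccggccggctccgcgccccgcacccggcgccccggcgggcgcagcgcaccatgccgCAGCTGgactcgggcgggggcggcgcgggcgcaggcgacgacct
Lef1: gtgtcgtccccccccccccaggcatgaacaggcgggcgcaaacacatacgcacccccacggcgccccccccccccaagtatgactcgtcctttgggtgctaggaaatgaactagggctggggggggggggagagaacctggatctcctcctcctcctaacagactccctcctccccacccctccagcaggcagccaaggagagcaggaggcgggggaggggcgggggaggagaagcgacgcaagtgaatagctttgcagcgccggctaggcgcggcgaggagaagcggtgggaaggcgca
Id2: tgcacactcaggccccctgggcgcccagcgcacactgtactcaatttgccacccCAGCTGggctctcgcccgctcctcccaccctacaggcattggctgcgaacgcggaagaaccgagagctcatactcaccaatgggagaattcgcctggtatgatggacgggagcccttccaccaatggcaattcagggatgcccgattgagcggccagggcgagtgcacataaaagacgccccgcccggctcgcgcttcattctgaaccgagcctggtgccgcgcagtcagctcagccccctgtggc

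Both E boxes have the letters CAGCTG. In the 300-base RefSeq windows of the 8 genes, 3 (Tcf7, Id2 and Satb1) held 1 match to CAGNTG each on either strand, a motif present in 51.4% of all 32851 such windows. No window of the 8 held the TCF and LEF motif CTTTGAT, the FOXO motif GTAAACA, the BACH and AP-1 motif TGANTCA or the T-box motif AGGTGTGA, which occur in 3.73%, 3.65%, 7.81% and 1.28% of windows. No other motif searched overlaps the E boxes marked. Only the window of the most upstream RefSeq start was searched, of 2 starts for Tcf7, 4 for Lef1 and 5 for Satb1. The Bach2 window (chr4:32504160-32504459) and the Id3 window (chr4:135699487-135699786) lie inside the annotated mm9 genes. Sequence before those annotated starts was therefore not searched.

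Tcf7 and Lef1 were lower in kidney than in spleen T cells, and the difference passed the test in CD8+ cells. Tcf7 (chr11:52065873-52096681, minus strand, mm9) stood at 337 and 475 in kidney CD8+ libraries, against 1764 and 2058 in spleen CD8+ libraries. In CD4+ cells it stood at 1002 and 587 in the kidney, against 1305 and 1471 in the spleen. Every kidney library lay below every spleen library, as it did for 3.6% of tested genes. The 4 groups did not overlap, with spleen CD8+ highest and kidney CD8+ lowest. The share of tested genes with 4 separate groups was not counted. Tcf7 averaged 406 ± 97.5 in kidney CD8+ and 1911 ± 208 in spleen CD8+ cells (SD, n = 2 each), a log2 fold change of -2.25 ± 0.38 (SE; 95% interval -3.12 to -1.38), or 4.75-fold lower (limma adjusted p = 0.0284). In CD4+ cells the log2 fold change was -0.85 ± 0.38 and did not pass (limma adjusted p = 0.560).

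Lef1 (chr3:130813389-130927274, plus strand) stood at 45.8 and 187 in kidney CD8+ libraries, against 1306 and 1784 in spleen CD8+ libraries. Its kidney CD4+ libraries were unlike each other, at 426 and 104, against 481 and 550 in spleen CD4+ libraries. All 4 kidney values again lay below all 4 spleen values, while the kidney CD8+ and kidney CD4+ ranges overlapped. The log2 fold change in CD8+ cells was -4.02 ± 0.77 (SE; 95% interval -5.79 to -2.26), or 16.3-fold lower (limma adjusted p = 0.0456), and that in CD4+ cells was -1.28 ± 0.77 (limma adjusted p = 0.711).

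These 2 of 8 members were the only ones called lower between kidney CD8+ and spleen CD8+ cells, where 0.341% of the 10845 genes were called lower and 1.21% higher, and no member was called higher. Averaged over both cell types, kidney against spleen, the same 2 members were called, Tcf7 at -1.55 ± 0.27 (limma adjusted p = 0.0167) and Lef1 at -2.65 ± 0.55 (limma adjusted p = 0.0369), where 0.664% of genes were called lower and 2.71% higher. Of these calls over both cell types, that of Tcf7 was lost without any 1 kidney CD8+ library (limma adjusted p = 0.0548 and 0.0964), without any 1 spleen library (0.0956 to 0.124) and without the intensity trend (0.0642). That of Lef1 was lost without kidney CD8+ replicate 1 (limma adjusted p = 0.130), without any 1 spleen library (0.147 to 0.196), without the trend (0.0909), with the replicate number as a block (0.0671) and with equal library totals (0.0569). Between kidney CD4+ and spleen CD4+ cells, where 0.959% of genes were called in either direction, no member was. Leaving out either kidney CD4+ library leaves 1, assumed to vary like the other groups, so only log2 fold changes are given for those fits. Without kidney CD4+ replicate 1, those CD4+ cells gave -1.24 for Tcf7, -2.29 for Lef1 and 0.79 for Id2. Without kidney CD4+ replicate 2, they gave -0.47 for Tcf7, -0.27 for Lef1 and -1.61 for Id3. The organ difference of Tcf7 was more negative in CD8+ than in CD4+ cells by 1.40 ± 0.54 on the log2 scale and that of Lef1 by 2.74 ± 1.10, and neither passed the test of that difference (limma adjusted p = 0.999 for both; unadjusted p = 0.0309 and 0.0352). That test called 0.0% of genes, with 362 at an unadjusted p below 0.05; edgeR called 0 genes, DESeq2 called 7 higher and 5 lower, and limma without kidney CD4+ replicate 1 called 649 higher and 96 lower, with no member among them.

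Both calls in CD8+ cells were lost when any 1 kidney CD8+, spleen CD8+ or spleen CD4+ library was left out (limma adjusted p between 0.0880 and 0.301 for Tcf7 and between 0.0613 and 0.388 for Lef1), with the log2 fold change staying between -2.50 and -2.00 for Tcf7 and between -5.03 and -3.02 for Lef1. Over 22 alternatives, Tcf7 was called in 14 and Lef1 in 9. Lef1 alone lost its call with a pseudocount of 0.5, no filter on low values, equal library totals, the compared libraries alone or edgeR. Neither was called without the intensity trend or with the replicate number as a block. Without both kidney CD4+ libraries, an alternative chosen after the data were seen, the limma adjusted p was 6.67e-04 for Tcf7 and 0.00365 for Lef1. B cell markers followed the same order of groups as Lef1 between organs and in the spleen: 5 of 8 listed were in the table, and their summed level was 252 and 224 in kidney CD8+, 264 and 234 in kidney CD4+, 979 and 893 in spleen CD8+ and 432 and 425 in spleen CD4+ libraries. Cd79b made up between 794 and 931 of the sum in spleen CD8+ libraries, where Ms4a1, which encodes CD20, stood at 6.06 and 34.4; Ms4a1 was at 0 in both kidney CD8+ libraries. The part of the B cell, tubule, neutrophil and erythroid markers in the Tcf7 and Lef1 results was not tested. In these bulk libraries fewer cells that express a gene and less of its RNA per cell cannot be told apart.

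**Figure D1:**
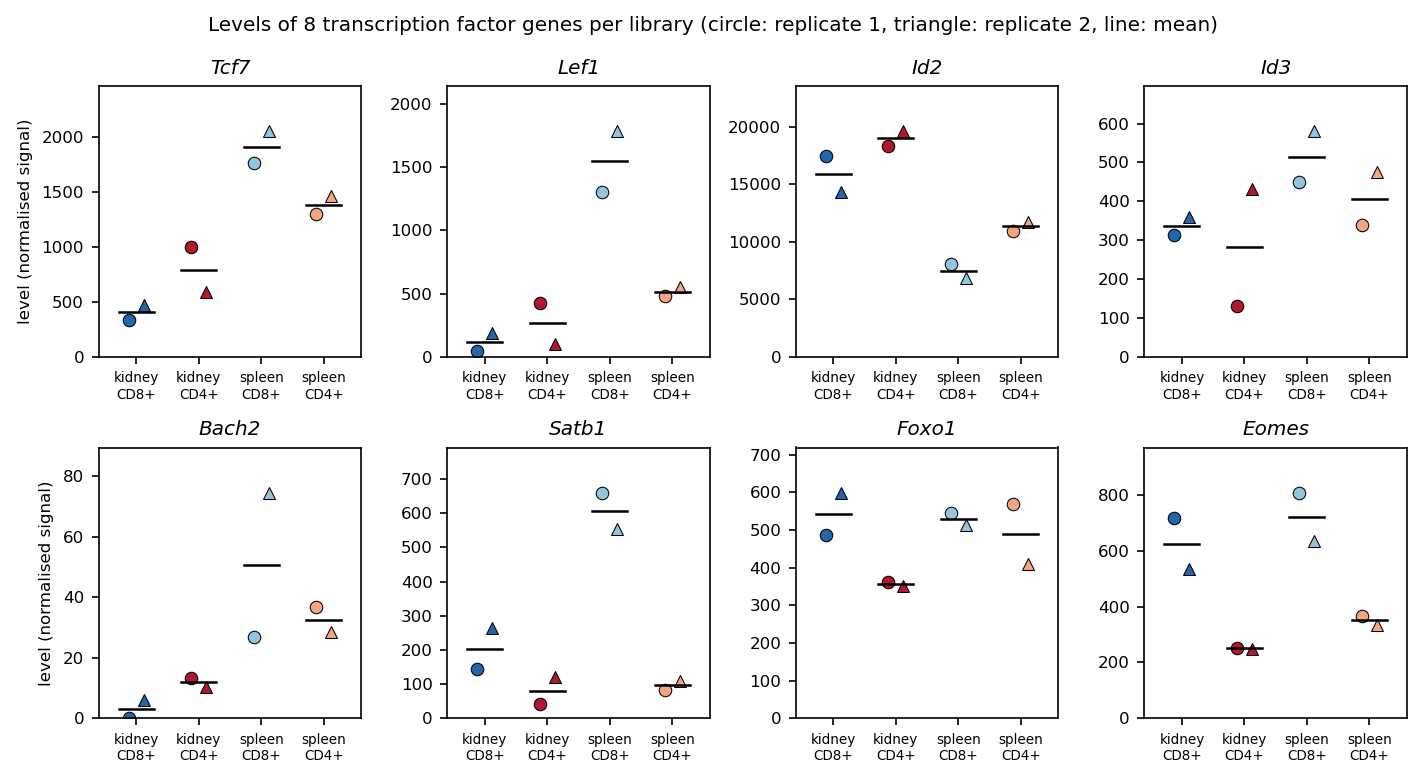
Levels (normalised signal, linear axis from 0) of the 8 genes in each library of the kidney CD8+, kidney CD4+, spleen CD8+ and spleen CD4+ groups; circles are replicate 1, triangles replicate 2 and lines the mean of the 2. Every kidney point lies below every spleen point for Tcf7, Lef1 and Bach2 and above for Id2, and every CD8+ point lies above every CD4+ point for Satb1 and Eomes.

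Lef1 and Tcf7 did not keep a fixed ratio. Within a library, and not corrected for transcript length, the level of Lef1 was 0.741 and 0.867 of that of Tcf7 in spleen CD8+ cells, against 0.368 and 0.374 in spleen CD4+ cells. In the kidney this share was 0.136 and 0.394 in CD8+ and 0.425 and 0.177 in CD4+ libraries, so all 4 kidney libraries lay below both spleen CD8+ libraries, and the kidney replicates were too far apart to order the cell types. Per kilobase of the longest annotated transcript, Tcf7 averaged 160 in kidney CD8+, 313 in kidney CD4+, 753 in spleen CD8+ and 547 in spleen CD4+ cells, which placed it at the 80.7th, 87.1th, 92.6th and 90.7th percentile of 9930 genes. On the same per-kilobase scale Lef1 averaged 31.9, 72.5, 423 and 141 in those 4 groups, at the 52.1th, 66.5th, 88.9th and 78.8th percentile.

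Partners of TCF1 and LEF1 showed no call. Of 30 listed cofactors and Wnt pathway genes 23 were tested, and none passed in any of the 6 comparisons; their median log2 fold change was 0.30 in CD8+ cells, kidney against spleen, beside 0 over all genes, and -0.34 in CD4+ cells, beside -0.08. Ctnnb1, which encodes the coactivator beta-catenin, stood at 219 and 185 in kidney CD8+, against 112 and 106 in spleen CD8+ libraries, and at 249 and 188 in kidney CD4+, against 172 and 146 in spleen CD4+ libraries (limma adjusted p = 0.481 and 0.809). Tle3, a Groucho corepressor bound by both factors, stood at 56.9 and 60.9 in kidney CD8+, against 106 and 100.3 in spleen CD8+ libraries (limma adjusted p = 0.635).

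Genes that TCF1-positive naive, memory and stem-like cells carry included 4 that fell with Tcf7 and Lef1 in kidney CD8+ cells, of 28 tested, with none called higher. Of all 10845 tested genes 0.341% were called lower and 1.21% higher in that comparison. Dapl1, a marker of naive and memory CD8+ cells, stood at 43.3 and 59.4 in kidney CD8+, against 1331 and 1362 in spleen CD8+ libraries, a log2 fold change of -4.70 ± 0.56 (limma adjusted p = 0.00743). Nsg2, an endosomal protein gene, and Tnfsf8, which encodes CD30 ligand, were called at -2.92 ± 0.41 and -2.61 ± 0.41 (limma adjusted p = 0.0136 and 0.0241). The median of the 28 was -1.91, beside 0 over all genes. In CD4+ cells none of the 28 was called and their median was -0.74, beside -0.08. Over both cell types 3 were called lower in the kidney, Nsg2 and Dapl1 among them. Between the cell types of the kidney, Tnfsf8 alone was called, at 28.01 and 23.1 in CD8+, against 724 and 900.1 in CD4+ libraries. All 4 CD8+ calls were lost without kidney CD8+ replicate 1 or either spleen CD8+ library. The count rose to 11 without both kidney CD4+ libraries. The share of all genes called in that fit was not set beside it, so the rise is not particular to this list.

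Id2 had the highest level per kilobase of the 8 genes in every group and lay on the other side of the organ comparison. Id2 (chr12:25778666-25780957, minus strand) stood at 17463 and 14309.8 in kidney CD8+, against 8027 and 6833 in spleen CD8+ libraries, and at 18323 and 19601 in kidney CD4+, against 10967 and 11682 in spleen CD4+ libraries. Every kidney library lay above every spleen library, as it did for 5.84% of tested genes. The 4 groups did not overlap, a pattern whose share over tested genes was not counted. Neither organ difference passed: the log2 fold change was 1.09 ± 0.37 (SE; 95% interval 0.25 to 1.94) in CD8+ cells (limma adjusted p = 0.294) and 0.74 ± 0.37 (95% interval -0.10 to 1.59) in CD4+ cells (limma adjusted p = 0.629). Without both kidney CD4+ libraries Id2 was called higher in kidney CD8+ cells (limma adjusted p = 0.00576). Per kilobase it ranked between the 98.4th and 99.4th percentile of genes in all 4 groups.

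Summed macrophage markers ran in the same order of groups as Id2 apart from overlaps. Summed dendritic cell markers did so too, at 4297 and 2521 in kidney CD8+ and 16618 and 13272 in kidney CD4+ libraries. In the spleen they stood at 1388 and 1603 in CD8+ and 2296 and 1980 in CD4+ libraries. Most of each sum came from H2-Aa, H2-Ab1 and H2-Eb1, at 7394, 4507 and 4640 in kidney CD4+ replicate 1. Xcr1 and Itgax stayed at or below 69.1 in every library and Zbtb46 at or below 19.8. Summed natural killer cell markers followed Id2 between organs, at 1208 to 2224 in kidney and 357 to 527 in spleen libraries. Most of the kidney sums came from Fcer1g and Tyrobp, at 1176 and 964 in kidney CD4+ replicate 2, where Ncr1 was at 0. Klre1 stood at 470 and 505 in kidney CD8+, against 199 and 209 in spleen CD8+ libraries. Some single markers ran the other way. Klrb1c of the natural killer list stood at 5.09 and 20.8 in kidney CD8+, against 27.6 and 33.4 in spleen CD8+ libraries. Cd68 of the macrophage list stood at 258 and 485 in kidney CD4+, against 559 and 518 in spleen CD4+ libraries. Itgax of the dendritic list stood at 23.6 and 18.1 in spleen CD8+, against 0.554 and 6.90 in spleen CD4+ libraries. Of the macrophage list Adgre1 was at 0 in both spleen CD8+ libraries, of the dendritic list Zbtb46 in all CD8+ libraries, and of the natural killer list Ncr1 in spleen CD8+ libraries. The part of these cells in the Id2 result was not tested.

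Id3 (chr4:135699412-135701670, plus strand) stood at 314 and 360.0 in kidney CD8+, against 448 and 581 in spleen CD8+ libraries, and at 131 and 432 in kidney CD4+, against 339 and 475 in spleen CD4+ libraries. The CD8+ ranges did not overlap and the CD4+ ranges did. The log2 fold changes were -0.60 ± 0.55 in CD8+ and -0.75 ± 0.55 in CD4+ cells (limma adjusted p = 0.784 and 0.760), and the sign in CD4+ cells turned to 0.10 without kidney CD4+ replicate 1. The level of Id2 over that of Id3 within a library was 55.6 and 39.7 in kidney CD8+, 140 and 45.4 in kidney CD4+, 17.9 and 11.8 in spleen CD8+ and 32.3 and 24.6 in spleen CD4+ cells, with every kidney value above every spleen value. Id2 over Tcf7 was 51.8 and 30.1, 18.3 and 33.4, 4.55 and 3.32, and 8.41 and 7.94 in the same groups, again without overlap between organs, and on this ratio the kidney CD8+ and spleen CD8+ cells were the farthest apart.

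**Figure D2:**
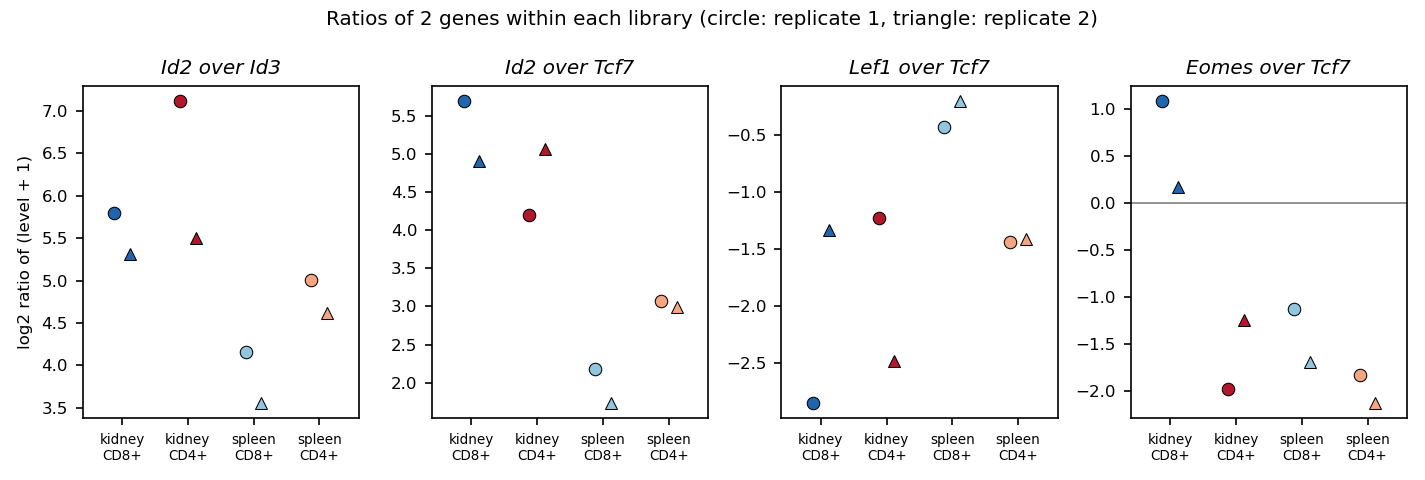
Log2 ratio of 2 genes' level + 1 within each library, for Id2 over Id3, Id2 over Tcf7, Lef1 over Tcf7 and Eomes over Tcf7, by group; circles are replicate 1 and triangles replicate 2. Id2 over Id3 and Id2 over Tcf7 lie higher in every kidney library than in any spleen library, and Eomes over Tcf7 is highest in the 2 kidney CD8+ libraries; no ratio is corrected for transcript length.

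ID2 and ID3 act by binding E proteins, which they keep from DNA. Of 10 listed E protein and Id family genes 4 were tested, none called in any comparison. Tcf3, which encodes E2A, stood at 23.8 and 19.3 in kidney CD8+, against 6.06 and 38.2 in spleen CD8+ libraries, and at 18.3 and 4.16 in kidney CD4+, against 11.6 and 36.2 in spleen CD4+ libraries. Tcf12, which encodes HEB, stood at 104 and 72.5, against 112 and 57.3, in CD8+ cells and at 62.7 and 60.4, against 45.4 and 61.3, in CD4+ cells. Neither had a direction that held in CD8+ cells across the alternatives.

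Bach2 had the lowest level per kilobase of the 8 genes in every group. Bach2 (chr4:32325779-32673083, plus strand) stood at 0 and 6.17 in kidney CD8+, against 26.9 and 74.5 in spleen CD8+ libraries, and at 13.4 and 10.4 in kidney CD4+, against 36.6 and 28.5 in spleen CD4+ libraries. These levels rest on 8 reads in kidney CD8+, 29 in kidney CD4+, 118 in spleen CD8+ and 99 in spleen CD4+ libraries together. Every kidney library lay below every spleen library, and spleen CD8+ overlapped spleen CD4+. The log2 fold change in CD8+ cells, -4.10 ± 1.06 (SE), did not pass (limma adjusted p = 0.134), nor did that in CD4+ cells, -1.38 ± 1.06 (limma adjusted p = 0.774), or the mean over both, -2.74 ± 0.75 (limma adjusted p = 0.118). With 1 kidney CD8+ library at 0 reads, the value in CD8+ cells depends on the pseudocount and the libraries used: it ran from -5.52 to -2.14 over 21 alternatives, 2 of which called it. With Tcf7 and Lef1, Bach2 made 3 members for which all 4 kidney libraries lay below all 4 spleen libraries, which held for 3.6% of tested genes.

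Of 14 tested BACH and AP-1 partners, Fosl2, an AP-1 subunit gene, was called higher in kidney CD8+ cells, at 324 and 284 against 30.3 and 28.6 in spleen CD8+ cells (log2 fold change 3.32 ± 0.51, limma adjusted p = 0.0189), and over both cell types; the median of the 14 was -0.04 in CD8+ and -0.37 in CD4+ cells. The CD8+ call of Fosl2 was lost without any 1 kidney CD8+ or spleen CD8+ library. Bach1, the paralogue, stood at 9.34 and 20.8 in kidney CD8+, against 38.4 and 36.3 in spleen CD8+ libraries, and at 25.4 and 32.3 in kidney CD4+, against 37.1 and 35.4 in spleen CD4+ libraries (limma adjusted p = 0.531 and 0.932). Prdm1, which encodes the repressor BLIMP1 and is restrained by BACH2 in mouse lymphocytes, stood at 216 and 120 in kidney CD8+, against 121 and 50.6 in spleen CD8+ libraries, and at 419 and 182 in kidney CD4+, against 163 and 94.0 in spleen CD4+ libraries (limma adjusted p = 0.642 and 0.675).

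Satb1 was measured higher in every CD8+ than in every CD4+ library, without passing the test. Satb1 (chr17:51875512-51972615, minus strand) stood at 660 and 554 in spleen CD8+, against 82.6 and 109.6 in spleen CD4+ libraries, and at 143 and 264 in kidney CD8+, against 40.9 and 121 in kidney CD4+ libraries. The spleen difference was 2.66 ± 0.58 on the log2 scale (SE; 95% interval 1.34 to 3.97) and the kidney one 1.45 ± 0.58, and neither passed (limma adjusted p = 0.142 and 0.534). The kidney difference was 0.68 without kidney CD4+ replicate 1 (limma adjusted p = 0.378) and 2.22 without kidney CD4+ replicate 2, where it was called (0.0175). Without both kidney CD4+ libraries it was called higher in spleen CD8+ than in spleen CD4+ cells (limma adjusted p = 0.00405) and lower in kidney CD8+ than in spleen CD8+ cells (0.0253). Between organs, the kidney CD8+ libraries lay below the spleen CD8+ libraries, at a log2 fold change of -1.63 ± 0.58 (limma adjusted p = 0.324), and the CD4+ libraries of the 2 organs overlapped. None of the 9 tested SATB partners and chromatin factors was called in any comparison, and their medians lay between -0.23 and 0.09.

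Foxo1 varied least. Foxo1 (chr3:52072259-52154031, plus strand) stood at 487 and 599 in kidney CD8+, against 545 and 513 in spleen CD8+ libraries, and at 362 and 351 in kidney CD4+, against 568 and 409 in spleen CD4+ libraries. Kidney CD4+ cells lay below the other 3 groups, which overlapped. The log2 fold change in CD8+ cells was 0.03 ± 0.34 (SE; 95% interval -0.76 to 0.82), with a sign that turns under TMM scaling and equal library totals, and in CD4+ cells it was -0.43 ± 0.34 (limma adjusted p = 0.990 and 0.779). The root mean square of its log2 level around its own mean over the 8 libraries was 0.278, against 0.525 for Id2 and 1.66 for Lef1.

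Of 26 tested genes of the FOXO family, its kinases and its targets, 2 were called lower in kidney CD8+ cells, among them S1pr1, which encodes the egress receptor for sphingosine phosphate, at 102 and 143 against 731 and 942 in spleen CD8+ cells (log2 fold change -2.77 ± 0.52, limma adjusted p = 0.0412). Both calls were lost without any 1 library other than those of kidney CD4+. The list median was -0.19 in CD8+ and -0.24 in CD4+ cells. Klf2, the factor that drives S1pr1, stood at 1137 and 1047 in kidney CD8+, against 3005 and 2688 in spleen CD8+ libraries, and Il7r, the interleukin 7 receptor, at 536 and 903, against 986 and 1269; neither passed (limma adjusted p = 0.528 and 0.581; both genes were picked after their values were seen). Over both cell types Bcl2l11, which encodes the death inducer BIM, was called higher in the kidney at 1.46 ± 0.32 (limma adjusted p = 0.0488), called in 8 of 20 alternatives. Foxo3, the paralogue, reached at most 8.32 in any library, was listed at 0 in both spleen CD4+ libraries and was not tested. The FOXO list shares members with the list of genes of TCF1-positive cells, and 1 of its CD8+ calls is counted in both.

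Eomes also lay higher in every CD8+ than in every CD4+ library. Eomes (chr9:118387330-118395250, plus strand) stood at 716 and 534 in kidney CD8+, against 252 and 248 in kidney CD4+ libraries, and at 807 and 636 in spleen CD8+, against 367 and 335 in spleen CD4+ libraries. The log2 fold change between cell types was 1.30 ± 0.35 in the kidney and 1.03 ± 0.35 in the spleen, and neither passed (limma adjusted p = 0.287 and 0.464); without both kidney CD4+ libraries the spleen difference was called (limma adjusted p = 0.0487), and the kidney one was called without either kidney CD4+ library (0.0171 without replicate 1 and 0.0246 without replicate 2). Satb1 and Eomes were the 2 members for which every CD8+ library lay above every CD4+ library, which held for 2.2% of tested genes. No member was called between kidney CD8+ and kidney CD4+ cells, where 0.203% of genes were called, or between spleen CD8+ and spleen CD4+ cells, where 0.36% were. Without kidney CD4+ replicate 2, Tcf7, Id3 and Satb1 stood at log2 fold changes of -1.32, 1.35 and 2.22 in kidney CD8+ against kidney CD4+ cells. Without kidney CD4+ replicate 1 they stood at -0.55, -0.36 and 0.68. Between organs, Eomes had log2 fold changes of -0.21 ± 0.35 in CD8+ and -0.49 ± 0.35 in CD4+ cells (limma adjusted p = 0.892 and 0.751). The ratio of Eomes to Tcf7, not corrected for transcript length, was highest in kidney CD8+ libraries, at 2.12 and 1.13, against 0.458 and 0.309 in spleen CD8+ libraries, and it stood at 0.252 and 0.422 in kidney CD4+, against 0.281 and 0.228 in spleen CD4+ libraries. Per kilobase, Eomes stood at 201 beside 133 for Tcf7 in kidney CD8+ replicate 1 and at 150.1 beside 187 in replicate 2, so the order of the 2 genes differed between these libraries.

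Among 16 tested genes induced with EOMES and T-bet, the granzyme genes Gzma and Gzmb were called higher in kidney CD8+ than in kidney CD4+ cells, Gzma at 7534 and 7103 against 169 and 458 (log2 fold change 4.71 ± 0.48, limma adjusted p = 0.0101) and Gzmb at 3.25 ± 0.34 (limma adjusted p = 0.0107). Gzma and the natural killer receptor gene Klrd1 were called higher in spleen CD8+ than in spleen CD4+ cells, at 4.83 ± 0.48 and 3.56 ± 0.49. The kidney calls were lost without any 1 library other than those of kidney CD4+, and the spleen calls without kidney CD8+ replicate 1 or any 1 spleen library. Between organs none of the 16 was called within CD8+ or CD4+ cells, and Klrg1, a receptor of late effector cells, was called lower in the kidney over both, at -1.26 ± 0.24 (limma adjusted p = 0.0254; called in 12 of 20 alternatives). Tbx21, which encodes the paralogue T-bet, stood at 166 and 161 in kidney CD8+, against 92.3 and 62.1 in spleen CD8+ libraries, and at 92.3 and 212 in kidney CD4+, against 39.3 and 45.7 in spleen CD4+ libraries. Within each cell type the kidney libraries lay above the spleen libraries, and neither difference passed (limma adjusted p = 0.531 and 0.285).

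**Figure D3:**
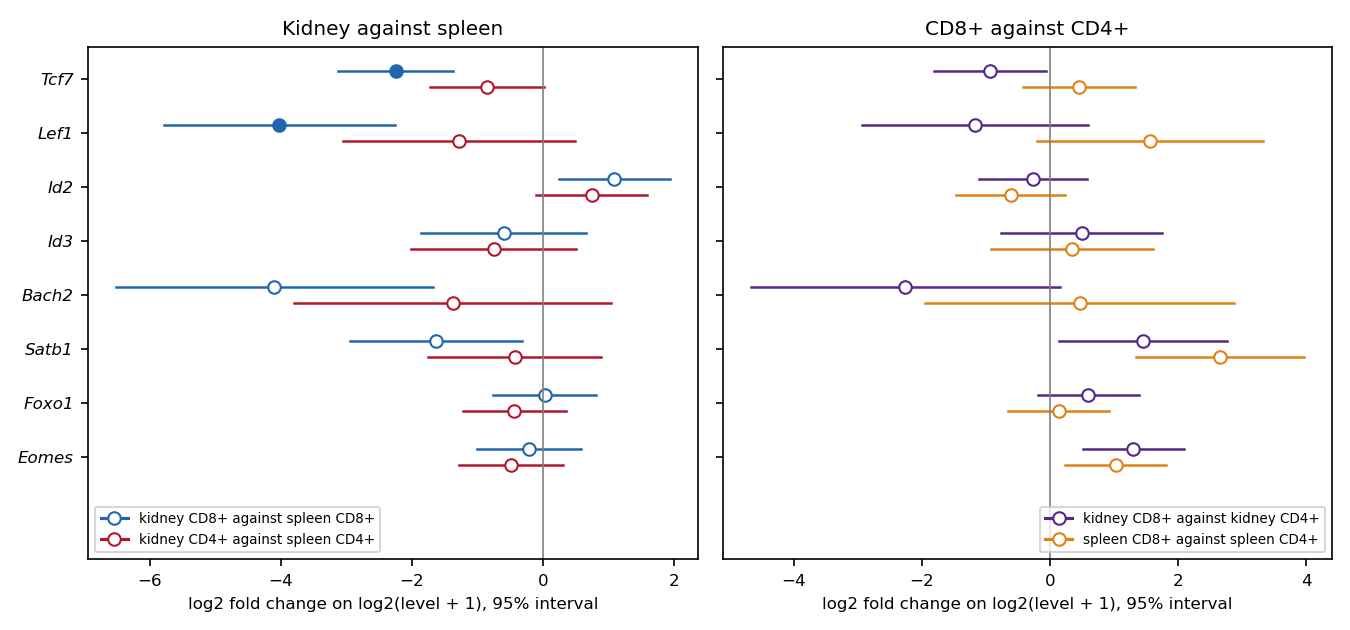
Log2 fold changes of the 8 genes on log2(level + 1) with 95% intervals, kidney against spleen in CD8+ (blue) and CD4+ cells (red) on the left, and CD8+ against CD4+ in kidney (purple) and spleen (orange) on the right; filled points were called. Tcf7 at -2.25 and Lef1 at -4.02, kidney CD8+ against spleen CD8+, are the 2 filled points.

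Across the 8 genes, 6 had a negative and 2 a positive log2 fold change in kidney CD8+ against spleen CD8+ cells, with a median of -1.12 beside 0 over all genes tested; in CD4+ cells 7 were negative and 1, Id2, was positive, with a median of -0.62 beside -0.08. Between cell types the medians were 0.12 in the kidney, beside 0.03 over all genes, and 0.46 in the spleen, beside -0.05. The spleen CD8+ cells had the highest mean of the 4 groups for 6 genes, namely Tcf7, Lef1, Id3, Bach2, Satb1 and Eomes.

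Factors of effector and terminal differentiation included 2 that rose in kidney CD8+ cells and none that fell. Of 23 tested, Nr4a3 and Nr4a2, nuclear receptors induced by antigen receptor signals, were called higher in kidney CD8+ cells, at 473 and 443 against 22.2 and 3.82 in spleen CD8+ cells for Nr4a3 and at 424 and 411 against 36.4 and 41.1 for Nr4a2 (log2 fold changes 5.44 ± 0.74 and 3.40 ± 0.48, limma adjusted p = 0.0130 and 0.0136). Over both cell types Rora, which encodes a retinoic acid receptor-related orphan receptor, joined them at 1.81 ± 0.28 (limma adjusted p = 0.00999). Both CD8+ calls were lost without either kidney CD8+ library or spleen CD8+ replicate 2. The median of the 23 was 0.68 in CD8+ cells, beside 0 over all genes, and 0.48 in CD4+ cells, beside -0.08. Maf and Ikzf2, which encodes Helios, were called lower in spleen CD8+ than in spleen CD4+ cells, at -4.08 ± 0.42 and -3.36 ± 0.44, and both calls were lost without any 1 spleen library.

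**Figure D4:**
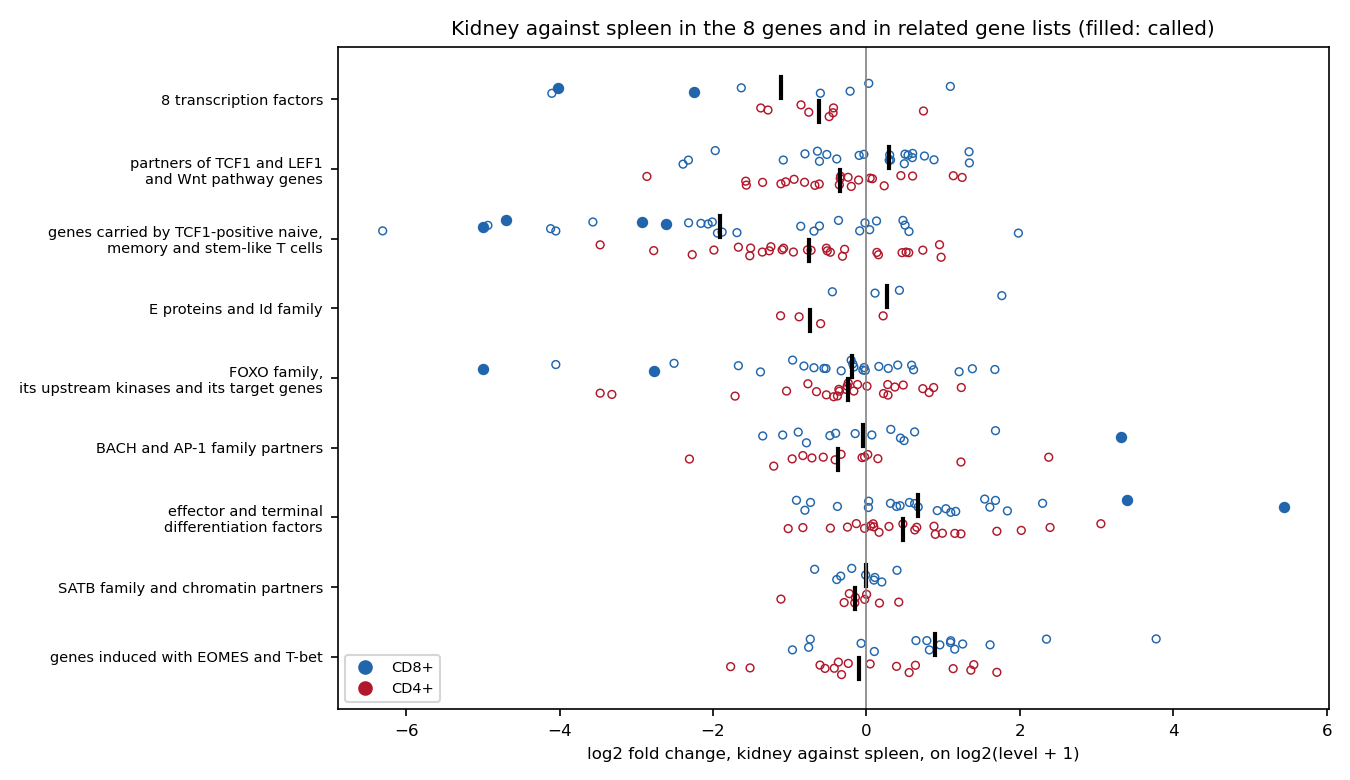
Log2 fold change, kidney against spleen, of the tested genes of 8 related lists and of the 8 transcription factor genes, in CD8+ (blue) and CD4+ cells (red); each point is a gene, filled points were called and black bars are medians. The list of genes of TCF1-positive cells has a median of -1.91 in CD8+ and -0.74 in CD4+ cells, and that of effector factors 0.68 and 0.48.

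The genes nearest to each member across the 8 libraries followed it to unlike degrees. Likeness was the root mean square difference of log2(level + 1) after centring each gene on its own mean, over 4522 genes with a mean level of at least 100. The nearest to Tcf7 were Fam65b (0.227), Icam2 (0.258) and Bzw2 (0.288), against a spread of Tcf7 itself of 0.891. Icam2, an adhesion molecule of leukocytes, averaged 350.2 in kidney CD8+, 572 in kidney CD4+, 1068 in spleen CD8+ and 1008 in spleen CD4+ cells. The nearest to Lef1 were Cmah (0.446), Thtpa (0.625) and Ccr7 (0.712), against a spread of Lef1 itself of 1.66. Cmah and Thtpa were also nearest to Bach2 (0.634 and 0.777), followed by Enc1 (0.779), against a spread of Bach2 itself of 1.79. Thtpa and Ccr7 averaged higher in kidney CD4+ than in spleen CD4+ cells, at 66.9 against 60.7 and 3348 against 2268. Lef1 and Bach2 averaged lower there. Ccr7, the chemokine receptor for lymph node entry, averaged 396 in kidney CD8+ against 6565 in spleen CD8+ cells, and its kidney CD4+ libraries stood at 6302 and 394.

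The genes nearest to Id2 were Mlec (0.117), Rab8b (0.169) and Ap1s2 (0.180), and those nearest to Id3 were Cdpf1 (0.215), Csnk2a1 (0.237) and Rhno1 (0.239). Satb1 was followed by Klk8 (0.644), Actn1 (0.667) and Bcl2 (0.679), the last a survival gene at 570 in kidney CD8+, 234 in kidney CD4+, 870.5 in spleen CD8+ and 213 in spleen CD4+ cells on average. Foxo1 was followed by Usp25 (0.134), Mrpl49 (0.141) and Psme3 (0.147), and Eomes by Borcs7 (0.209), Ugcg (0.269) and Ict1 (0.270). These are descriptions over libraries that share 4 groups. The spread of the member itself was 0.525 for Id2, 0.607 for Id3, 1.27 for Satb1, 0.278 for Foxo1 and 0.628 for Eomes.

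The library kit does not mark strand, so reads of an overlapping gene on the other strand cannot be told apart from those of the member. In the mm9 annotation such a gene overlaps Tcf7 (A630014C17Rik), Bach2 (BC024582) and Foxo1 (RP24-337A16.1), and none of them is named in the table. No member shared its values with another gene.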

How the data were processed

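The deposited table holds 1 normalised signal per gene and library, made by the authors; every deposited signal value was a whole number of reads divided by a single factor per library (100% of values within 1e-06 of a whole read), so reads could be recovered. Per the submitters' processing notes, reads were handled with STAR 2.5.3 and TopHat2 2.1.0 against mm9, while the series text gives Bowtie beside STAR; for the counting tool, the gene annotation and the factors, the method is not given in the sources used here. Per the labels' protocols, RNA was isolated with the RNeasy Plus Micro kit and libraries were made with SMART-Seq v4, which has no molecular identifiers, so depth bounds counting error only.

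From these values limma 3.58.1 (R 4.3.3) fitted log2(signal + 1) with 1 mean per group, all 8 libraries together, an intensity trend and two-sided moderated tests of 6 comparisons, with Benjamini-Hochberg adjustment over 10845 genes. The alternatives were other pseudocounts, filters and scalings, library weights, no trend, the compared libraries alone, each library left out, the replicate block, and edgeR 4.0.16 and DESeq2 1.42.0 on the recovered reads; the fits were tested on simulated data. The members, the 8 related gene lists and the marker lists were chosen with earlier results of these data known. Named from the lists were up to 4 called genes per list and comparison with the smallest adjusted p, a few paralogues and partners whatever they showed, and the 3 genes nearest to each member; 2 genes that this rule or the marker lists would name are not reported here. Transcript lengths and positions came from the NCBIM37 (mm9) annotation, which held 12069 of the 13341 symbols.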

Additional observations from a re-analysis of the deposited data

Results flagged for a closer look

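Tcf7 differed between CD8+ and CD4+ cells in opposite directions in the 2 organs, without overlap in either. Such separation of 2 libraries from 2 was frequent among the 8 members. Only 2 of them overlapped between the kidney cell types and 3 between the spleen cell types. Its share over all tested genes was not counted. Lef1 (log2 fold changes -1.17 in the kidney and 1.57 in the spleen) and Bach2 (-2.26 and 0.46) also had opposite signs, Lef1 with overlap in the kidney and Bach2 in the spleen. Tcf7 stood at 337 and 475 in kidney CD8+, against 1002 and 587 in kidney CD4+ libraries (log2 fold change -0.94 ± 0.38, SE). In the spleen it stood at 1764 and 2058 in CD8+, against 1305 and 1471 in CD4+ libraries (0.46 ± 0.38, 95% interval -0.41 to 1.33). Neither difference was called (limma adjusted p = 0.554 in the kidney). The difference between these 2 log2 fold changes was -1.40 ± 0.54 (95% interval -2.63 to -0.16) and did not pass the limma test of that difference (unadjusted p = 0.0309, adjusted p = 0.999). It stayed between -1.78 and -1.01 over 20 alternatives, with a limma, edgeR or DESeq2 adjusted p of 0.0984 or more in all of them.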

How the results depend on the processing

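The counts of called members, which are small, moved with the processing. In kidney CD8+ against spleen CD8+ cells, 2 members were called lower; this became 1 with a pseudocount of 0.5, no filter on low values, equal library totals, the compared libraries alone or edgeR, 4 with library weights, 0 without the intensity trend, and 0 to 3 with 1 library left out. None was called higher there, against 1 with library weights, 1 without both kidney CD4+ libraries and 0 to 1 with 1 library left out. Over both cell types 2 were called lower, against 1 with equal library totals, 0 without the trend and 0 to 4 with 1 library left out, and 0 higher, against 1 with DESeq2 and 0 to 1 with 1 library left out. In kidney CD4+ against spleen CD4+ cells 0 were called in each direction, against 0 to 1 higher and 0 to 2 lower with 1 library left out. Between the cell types of the kidney 0 were called, against 1 higher with DESeq2 and 0 to 3 higher and 0 to 1 lower with 1 library left out, and in the spleen 0, against 1 higher with the compared libraries alone, 3 with library weights, 1 with DESeq2, 2 without both kidney CD4+ libraries and 0 to 1 with 1 library left out.

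Replicate numbers are shared by the groups, but nothing says that they mark an animal or a day: same-numbered libraries deviated together between kidney CD4+ and spleen CD4+ cells (r = 0.27 across 4691 genes) and in opposite ways between kidney CD4+ and spleen CD8+ cells (-0.43). With the replicate block, members called lower were 0 in kidney CD8+ against spleen CD8+ cells and 1 over both cell types. Crossing the numbers between cell types, since these deviated oppositely (-0.19 in the kidney and -0.11 in the spleen), gave 16 genes higher and 15 lower in the kidney, against 13 and 9, and 20 higher and 41 lower in the spleen, against 14 and 25. No label gives the crossed pairing. It was taken from the same deviations that it then fits, so these counts cannot show that libraries were paired.

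Counts over all genes moved further. Kidney CD8+ against spleen CD8+ calls ranged from 16 to 483 higher (131 as reported) and from 4 to 268 lower (37), those of kidney CD4+ against spleen CD4+ cells from 0 to 804 (87) and from 0 to 1527 (17), those over both cell types from 124 to 1094 (294) and from 24 to 1655 (72), those between cell types of the kidney from 0 to 987 (13) and from 0 to 665 (9), and those of the spleen from 1 to 217 (14) and from 1 to 449 (25). The highest counts of kidney CD4+ against spleen CD4+ cells came without kidney CD4+ replicate 1 and the lowest with the compared libraries alone. The test of the difference between organ effects called 0 genes in each direction, against up to 649 higher and 96 lower without kidney CD4+ replicate 1. DESeq2 called 358 higher and 128 lower and edgeR 74 higher in CD8+ cells. Equal library totals moved the median of all genes to -0.22 in CD4+ cells, kidney against spleen, and to -0.24 between the spleen cell types.

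Some signs turned, none of them of a called difference. With 1 library left out, Id3 ranged from -1.61 to 0.10 in kidney CD4+ against spleen CD4+ cells, from -0.36 to 1.35 between kidney cell types and from -0.70 to 1.01 in the difference between organ effects, which became -0.14 with edgeR and -0.19 with DESeq2. Bach2 ranged from -0.25 to 1.18 between spleen cell types and Satb1 from -1.20 to 0.34 in kidney CD4+ against spleen CD4+ cells. Foxo1 ranged from -0.12 to 0.18 in kidney CD8+ against spleen CD8+ cells, with -0.0096 under TMM scaling, -0.05 with equal library totals and -0.00050 with edgeR, and from -0.10 to 0.37 between spleen cell types, with -0.060 with equal library totals. In CD8+ cells, kidney against spleen, Tcf3 ranged from -0.81 to 1.67, with -0.026 under edgeR and -0.0079 under DESeq2, and Tcf12 from -0.36 to 0.59. The cause was not tested.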
